A study of Mus musculus with 10 samples.

Results

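The major histocompatibility complex (MHC) of the mouse lies on chromosome 17, and the regions described here are all those of an ATAC-seq count table whose start fell from 33.5 Mb up to 37.5 Mb of that chromosome (build mm10). They numbered 326 of the 77076 regions of the table, and were taken by their position. ATAC-seq marks open chromatin, because a transposase inserts sequencing adapters where DNA is accessible. The cells were regulatory T (Treg) cells, taken from spleens and lymph nodes. They came from mixed bone marrow chimeras, in which marrow of different genotypes rebuilds the blood of 1 host. The labels give 3 libraries of wild-type central Treg cells (WT cTreg), 3 of wild-type effector Treg cells (WT eTreg), 2 of Fntb-deficient cTreg cells (FntbKO cTreg) and 2 of Fntb-deficient eTreg cells (FntbKO eTreg). Fntb codes for a subunit of the enzyme that attaches farnesyl lipids to proteins. The allele, the driver of the deletion, the strain and age of donors and hosts, the gates that separate cTreg from eTreg cells and whether WT and FntbKO cells came from the same host are not given in the sources used here. P-values therefore measure the spread between these libraries, which may in part be technical.

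The MHC holds gene families of antigen presentation. Class I molecules, made of a heavy chain from the MHC and B2m, show peptides from inside the cell to CD8 T cells, and the peptides are cut by the immunoproteasome, carried by the Tap1 and Tap2 transporter and loaded with the help of Tapbp. Class II molecules, pairs of an alpha and a beta chain such as H2-Aa with H2-Ab1, show peptides from endosomes to CD4 T cells, with H2-DM as the peptide editor and H2-O as its inhibitor. Mouse T cells carry class I on their surface, whereas class II is mainly a product of B cells, dendritic cells and macrophages. Tumour necrosis factor, the lymphotoxins, complement genes, heat shock genes and many genes without an immune role lie between these families.

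Promoters such as those of H2-K1, H2-Aa and Tap1 overlapped accessible regions, whereas the H2-Oa and Tnf windows overlapped none. Of those that overlapped a region, 5 are printed to show their matches to the short motifs named below. Each is the RefSeq window of 250 bases before and 50 bases after the gene start (GRCm38.p6, the assembly of mm10), 5′ to 3′ on the strand of the gene. Capitals mark matches, on either strand, to the kappaB motif GGGNNTTCC, the ISRE motif GAAANNGAA, the Y box motif ATTGG and the X2 core motif TGACG.
H2-K1 promoter, chr17:34000298-34000597, minus strand: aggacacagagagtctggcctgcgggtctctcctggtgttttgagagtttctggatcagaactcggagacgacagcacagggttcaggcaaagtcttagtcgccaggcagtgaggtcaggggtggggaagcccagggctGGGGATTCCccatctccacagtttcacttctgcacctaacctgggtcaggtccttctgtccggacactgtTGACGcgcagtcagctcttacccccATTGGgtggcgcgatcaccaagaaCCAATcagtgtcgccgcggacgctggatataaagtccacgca
H2-D1 promoter, chr17:35262844-35263143, plus strand: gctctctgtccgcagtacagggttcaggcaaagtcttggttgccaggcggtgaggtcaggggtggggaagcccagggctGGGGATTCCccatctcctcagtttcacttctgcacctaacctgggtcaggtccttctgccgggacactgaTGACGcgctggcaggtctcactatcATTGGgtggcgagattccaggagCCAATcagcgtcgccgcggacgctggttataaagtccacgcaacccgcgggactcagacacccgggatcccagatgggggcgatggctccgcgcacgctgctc
H2-Aa promoter, chr17:34287774-34288073, minus strand: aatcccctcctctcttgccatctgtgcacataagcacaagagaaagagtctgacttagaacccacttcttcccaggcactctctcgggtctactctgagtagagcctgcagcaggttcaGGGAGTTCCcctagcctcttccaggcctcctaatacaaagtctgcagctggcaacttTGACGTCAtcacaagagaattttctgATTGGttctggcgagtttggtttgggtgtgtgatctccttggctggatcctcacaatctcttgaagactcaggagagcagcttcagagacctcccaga
H2-Eb1 promoter, chr17:34305617-34305916, plus strand: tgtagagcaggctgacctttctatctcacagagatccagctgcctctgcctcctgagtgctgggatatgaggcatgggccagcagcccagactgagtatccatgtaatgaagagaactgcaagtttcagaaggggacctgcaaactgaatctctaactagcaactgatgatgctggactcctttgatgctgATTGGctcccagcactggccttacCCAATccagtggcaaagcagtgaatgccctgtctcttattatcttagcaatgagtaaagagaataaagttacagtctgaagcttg
Tap1 promoter, chr17:34187306-34187605, plus strand: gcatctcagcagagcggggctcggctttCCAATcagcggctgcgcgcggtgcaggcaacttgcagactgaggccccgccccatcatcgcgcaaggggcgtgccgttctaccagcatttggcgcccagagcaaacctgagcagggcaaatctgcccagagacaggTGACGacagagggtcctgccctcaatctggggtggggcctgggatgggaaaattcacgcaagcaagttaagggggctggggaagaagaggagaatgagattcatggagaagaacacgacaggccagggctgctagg
The H2-K1 and H2-D1 windows, of classical class I genes, shared the same arrangement of 1 kappaB match, 1 X2 core match and 2 Y box matches. The H2-Aa window held 1 kappaB match, 1 Y box match and 2 X2 core matches that overlap on opposite strands, and the H2-Eb1 window held 2 Y box matches and none of the other motifs. The Tap1 window, which lies in the same open region as the start of Psmb9 on the other strand, held 1 Y box match and 1 X2 core match. None of the 5 windows matched the ISRE motif as spelled. Other spellings of that motif were not searched, so these windows are not read as lacking an ISRE. Of 244 promoter windows in the MHC interval, 11.9% held the kappaB motif, 7.79% the ISRE motif, 47.1% the Y box and 31.1% the X2 core, against 5.82%, 8.56%, 37.4% and 20.8% of all 32851 windows. A match describes letters and does not show that a factor binds.

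The interval was dense in accessible regions. It held 81.5 regions per Mb, against 36.9 per Mb over chromosome 17, and 3 of 649 windows of 4 Mb along the genome held more. The regions fell to 139 protein-coding genes, with 195 (59.8%) inside the span of such a gene, close to the 62.8% of all regions. A region takes the gene whose span it overlaps or else the nearest span within 100 kb, which is a position and not a shown target. At promoter windows lay 89 of the 326 (27.3%), against 13.2% of all regions and 15.0% of the other regions of chromosome 17. Median accessibility, as depth-scaled counts (CPM) per kb of region, was 16.6 in the MHC and 13.3 over all regions. The 89 promoter regions had a median of 31.8 CPM per kb and held 49.0% of the MHC signal, and the 237 others had a median of 14.1 CPM per kb. At the lower border of the interval, the last region before it (8.01 CPM) and the first inside (1.70 CPM) both take Adamts10. At the upper border the last region inside lies at H2-M3 (77.4 CPM), and the next region of the table, near Crisp2 (7.73 CPM), starts at 40763664.

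Total counts ran from 5058328 to 15328775 per library, of which 0.364% to 0.410% fell in the MHC. The region at the Fntb promoter (chr12:76837192-76837915) had 29.2 to 36.9 CPM in the 6 WT libraries and 7.48 to 13.1 CPM in the 4 FntbKO libraries, without overlap, although which part of Fntb is deleted is not given. All 7 Treg marker genes had regions, Foxp3 and Il2ra among them, with a summed 1294 to 1525 CPM per library. On the first principal component of all regions, FntbKO cTreg 1 lay farthest out (-114.4) and WT cTreg 2 (9.95) lay apart from the other WT cTreg libraries (-42.1 and -30.0). In the MHC alone, FntbKO cTreg 1 again lay farthest out (-8.07). FntbKO cTreg 2 (-3.64) and the FntbKO eTreg libraries (-2.05 and -0.08) also lay below the WT libraries (0.15 to 4.29). Over all regions the genotypes overlapped on the first component, with FntbKO eTreg at -0.77 and 22.4. In bulk libraries of this kind, fewer cells with an open region and less opening per cell cannot be told apart.

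The most accessible MHC region per kb was not a classical presentation promoter. It lay inside H2-M3, a class I gene for formylated peptides, at chr17:37270755-37271216, with a mean of 168 CPM per kb and 69.5 to 88.8 CPM in the 10 libraries. The next was the promoter of Rab11b (155 CPM per kb), a GTPase of recycling endosomes. After it came a region (132) that overlaps both Rnf5 and the start of Agpat1, an enzyme of phosphatidic acid synthesis. They were followed by the promoters of Ppp1r11 (108), an inhibitor of protein phosphatase 1, and of the ubiquitin ligase Trim26 (104). Then came a region inside H2-DMa (102), the promoter of the stress factor Atf6b (98.9), that of the kinesin Kifc1 (87.3), a region inside Tnf (87.1) and a region nearest to Gm7030 that overlaps the transcribed pseudogene H2-T10 (85.2). None of these 10 was called in any comparison. Among class I heavy chains, H2-K1 (81.3 CPM per kb) and H2-D1 (78.5) came after H2-M3 and did not differ beyond the range of their libraries. A region 15176 bp outside H2-T3 (48.5), H2-T23 (32.9), which codes for Qa-1, and H2-T24 (30.0) were lower. A region 9575 bp outside H2-Q10 (7.65) and the promoter of H2-Q2 (6.48) were at the bottom. The regions for H2-T3 and H2-Q10 are assigned by position and do not overlap these genes. Of 31 class I symbols listed, 26 were in the annotation and 14 had a region. H2-Q4, H2-Q6, H2-Q7 and H2-T22 had none. These genes are near copies of others in the complex, and how reads shared between copies were placed is not given in the sources used here. The annotation puts H2-Q8 and H2-Q9 outside the interval, so their lack of a region is not read here. All 9 annotated class II genes had regions. After H2-DMa (102 CPM per kb) came the promoter of H2-Aa (45.7), a region near H2-Ob (39.4), the promoter of H2-Eb1 (38.6), and regions near H2-Ab1 (26.8) and H2-Eb2 (25.8). H2-DMb1 was lowest at 6.23 CPM per kb. The 5 peptide processing genes lay close together, from 38.0 CPM per kb at the Tapbp promoter to 26.8 beside Psmb8, and their library ranges overlapped.

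**Figure D1:**
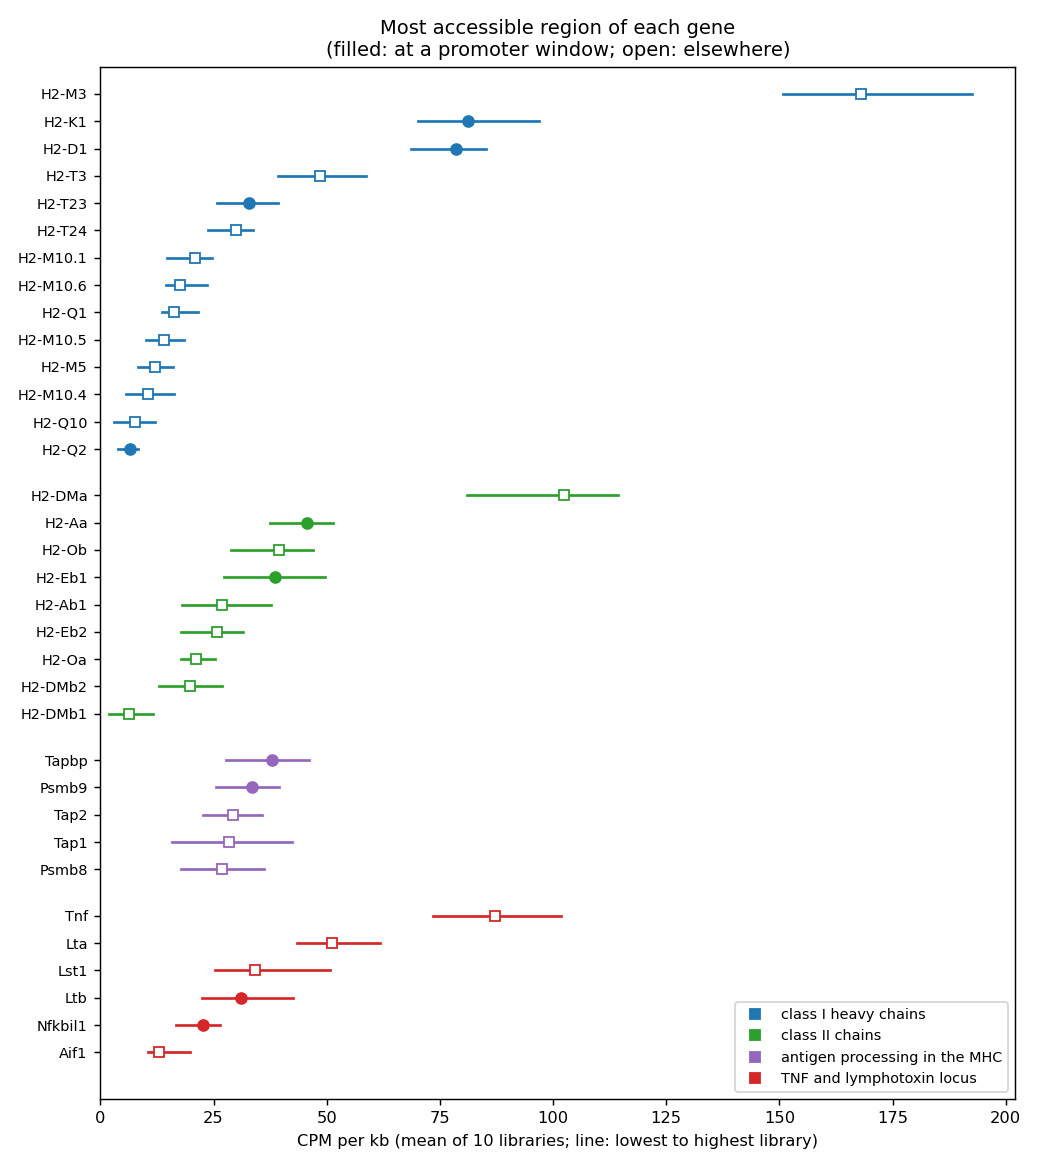
Accessibility of the region with the highest mean CPM of each gene, in 4 gene lists of the MHC (horizontal axis: CPM per kb, mean of 10 libraries; line: lowest to highest library; filled marker: region at a promoter window, open marker: elsewhere). H2-M3 (168 CPM per kb) and H2-DMa (102) stand highest in their lists, and the lines of H2-K1 and H2-D1 overlap.

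Between cTreg and eTreg cells of WT origin, 5 of 326 MHC regions were called, 3 higher (background 1.83%) and 2 lower (1.61%) in eTreg, at a Benjamini-Hochberg adjusted p under 0.05 in edgeR's quasi-likelihood test over all 76216 tested regions. Over all regions 3.44% were called, so the MHC share (1.53%) was below the background. At an unadjusted p under 0.05 there were 43 MHC regions (13.2%, against 18% of all). The median log2 fold change was 0.06 over the MHC and -0.01 over all regions.

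The firmest of these was inside Rab11b, 7.81 kb from the nearer gene end, at chr17:33752230-33752676. Its accessibility was 14.7, 13.8 and 15.0 CPM in the WT cTreg libraries and 3.61, 7.97 and 4.41 CPM in the WT eTreg libraries. The FntbKO cTreg libraries had 14.1 and 14.3 CPM and the FntbKO eTreg libraries 8.41 and 7.28 CPM, so all 5 eTreg libraries lay below all 5 cTreg libraries. The log2 change in WT was -1.41 (SE 0.24, adjusted p = 0.00192 in edgeR), and it stayed called under all 20 alternatives. In FntbKO the log2 change was -0.87 (SE 0.28, adjusted p = 0.114 in edgeR). The promoter of the same gene, about as open in every library (84.4 to 102 CPM), had a log2 difference in WT of 0.08 (SE 0.09), which was not called.

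The region called most often lay inside Nfkbil1, a gene of the TNF cluster whose product resembles the inhibitors of NF-kappaB, at chr17:35231019-35231497 and 4.98 kb from the nearer gene end. Its accessibility was 10.9, 18.2 and 13.7 CPM in WT cTreg and 26.9, 25.7 and 24.4 CPM in WT eTreg cells. In FntbKO it was 4.65 and 7.78 CPM in cTreg and 13.6 and 21.4 CPM in eTreg cells. Within each genotype the eTreg libraries lay above the cTreg libraries, and across genotypes they overlapped. The log2 change from cTreg to eTreg was 0.86 in WT (SE 0.20, adjusted p = 0.0178 in edgeR) and 1.47 in FntbKO (SE 0.26, adjusted p = 0.00732 in edgeR), and the difference between these changes was 0.61 (SE 0.33, adjusted p = 0.9999 in edgeR). The WT call was lost without WT cTreg 1, WT cTreg 3, WT eTreg 1 or WT eTreg 3 (adjusted p 0.0623 to 0.108 in edgeR). The FntbKO call was lost without FntbKO cTreg 1, FntbKO eTreg 2, or FntbKO cTreg 1 and WT cTreg 2 together (log2 change 1.08 to 1.20). The promoter region that Nfkbil1 shares with Atp6v1g2 had 17.3 to 20.2 CPM in WT cTreg, 23.4 to 25.3 CPM in WT eTreg and 25.0 to 27.6 CPM in the FntbKO libraries, and it passed no test.

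The other WT calls were less firm. A region between Ddr1 and Ier3, an early response gene, rose in eTreg from 7.54, 8.26 and 3.38 CPM to 10.12, 15.3 and 13.6 CPM (chr17:35766394-35766827, 54.9 kb from Ier3, log2 change 1.06, SE 0.27, adjusted p = 0.0272 in edgeR). A region inside Wdr46, which codes for a nucleolar protein, fell from 14.2, 8.43 and 13.5 CPM to 5.54, 8.57 and 4.07 CPM (chr17:33947706-33948130), where WT eTreg 2 lay just above WT cTreg 2. Its log2 change was -0.97 (SE 0.25, adjusted p = 0.0315 in edgeR). The only called region of a class I gene lay 27.1 kb outside H2-M10.4, a gene known from sensory neurons of the vomeronasal organ. It had 0.559, 1.72 and 0.845 CPM in WT cTreg and 2.89, 6.18 and 3.56 CPM in WT eTreg (chr17:36431480-36431800, log2 change 2.07, SE 0.55, adjusted p = 0.0364 in edgeR), on 22 and 107 counts. These calls were lost on leaving out single libraries: that near Ier3 without WT cTreg 3, WT eTreg 2 or WT eTreg 3 (adjusted p up to 0.191), that of Wdr46 without WT cTreg 1, WT cTreg 3, WT eTreg 1 or WT eTreg 3 (up to 0.173), and that near H2-M10.4 without any of these 4 or WT eTreg 2 (up to 0.182).

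In FntbKO cells the Nfkbil1 region was the 1 MHC region called between eTreg and cTreg cells, against 1.36% of all regions. It was higher in eTreg, as 0.966% of all regions were, and 0 MHC regions were called lower, against 0.39% of all. The MHC median log2 change was 0.04, and that of all regions was near 0. The next smallest p-values belonged to a pair of regions inside Myo1f, a myosin of white blood cells, a region beside Notch4 and a region 6.90 kb from Brd2. The Myo1f region at chr17:33563595-33564057 had 0.274 and 1.95 CPM in FntbKO cTreg and 6.01 and 6.69 CPM in FntbKO eTreg (log2 difference 2.28, SE 0.61, adjusted p = 0.0758 in edgeR). The region beside Notch4 had 2 counts in all in FntbKO eTreg, so no fold is given.

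**Figure D2:**
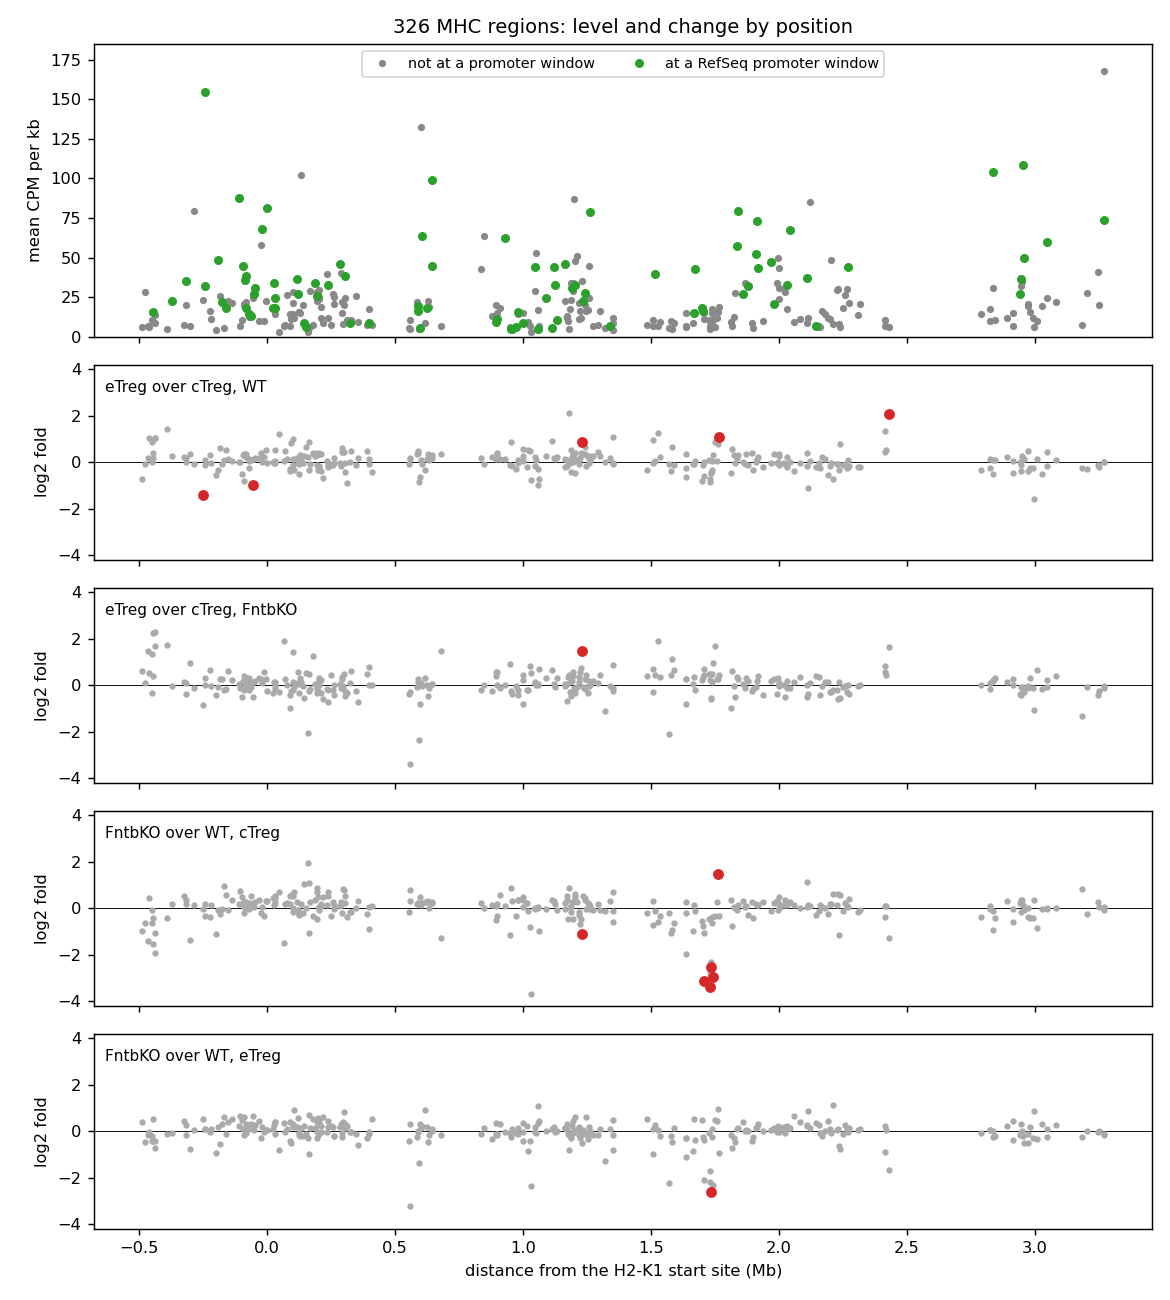
Position along the MHC (horizontal axis: distance from the H2-K1 start in Mb) against accessibility (top, mean CPM per kb, promoter regions in green) and log2 fold change in the 4 comparisons (lower panels, red: called at an adjusted p under 0.05). Most regions lie close to 0 in every comparison, and the called regions of FntbKO against WT in cTreg gather beside Ddr1, to the right of the middle.

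Between FntbKO and WT cTreg cells, 6 of 326 MHC regions were called (1.84%), against 0.568% of all regions. In FntbKO 1 was higher, against 0.19% of all regions, and 5 were lower, against 0.378%. At an unadjusted p under 0.05 there were 51 (15.6%, against 12.4% of all). Of the 5 that fell, 4 lay close together in the gap between Ddr1, a receptor tyrosine kinase that binds collagen, and Ier3, and the 1 that rose lay in the same gap. Without FntbKO cTreg 1, which stands farthest from the other libraries, 1 of the 6 calls remained, and the same number remained without that library and WT cTreg 2 together. Over all regions the calls went from 433 to 41 and to 43 in these settings. The remaining region is described next.

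That region lay 3.19 kb outside the Ddr1 span, on the side of the gene's start, at chr17:35707930-35708261, within the span of the non-coding RNA gene Gm4577. Its accessibility was 9.77, 8.09 and 9.82 CPM in WT cTreg and 7.59, 5.38 and 5.26 CPM in WT eTreg cells. It was 0 and 1.69 CPM in FntbKO cTreg and 0.801 and 1.77 CPM in FntbKO eTreg cells, so the genotypes did not overlap. The log2 change in cTreg was -3.13 (SE 0.52, adjusted p = 0.00553 in edgeR, on 26 counts in FntbKO), and the call held under all 20 alternatives. In eTreg it was -2.11 (SE 0.53, adjusted p = 0.0885 in edgeR).

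Farther from Ddr1 the region at chr17:35734544-35734827 was called in both subsets. It had 5.31, 3.10 and 4.96 CPM in WT cTreg, 2.65, 3.19 and 4.07 CPM in WT eTreg, 0.547 and 0.908 CPM in FntbKO cTreg and 0.401 and 0.590 CPM in FntbKO eTreg. The log2 change was -2.53 in cTreg (SE 0.49, adjusted p = 0.0116 in edgeR) and -2.62 in eTreg (SE 0.57, adjusted p = 0.0354 in edgeR), and the difference between them was -0.09 (SE 0.70). The call in cTreg was lost without FntbKO cTreg 1, alone or together with WT cTreg 2 (log2 change -2.48 to -2.29). That in eTreg was lost without WT cTreg 3, any of the WT eTreg libraries or either FntbKO eTreg library (0.0573 to 0.288), and in limma-voom.

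The other members called in cTreg were as low in FntbKO. At chr17:35731791-35732080 the 4 FntbKO libraries had 0.274 to 0.801 CPM and the WT libraries 1.02 to 5.17 CPM (log2 change in cTreg -3.38, SE 0.67, adjusted p = 0.0135 in edgeR). At chr17:35741921-35742234 the FntbKO libraries had 0 to 1.57 CPM and the WT libraries 3.91 to 6.77 CPM (log2 change in cTreg -2.95, SE 0.57, adjusted p = 0.0127 in edgeR). The first call was lost without WT cTreg 1, FntbKO cTreg 1, FntbKO cTreg 2, or FntbKO cTreg 1 and WT cTreg 2 together (log2 change -3.70 to -3.07). The other was lost without FntbKO cTreg 1, alone or together with WT cTreg 2 (-2.30 to -2.15). Both were also lost in limma-voom.

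Over the 34.3 kb from the first to the last of these regions the table holds 9 regions. In 7 of them all FntbKO libraries lay below all WT libraries, as in 2.09% of all regions. The stretch was cut at its first and last such region, so both of its ends count by that choice. The strains of the donors are not given, and a difference in DNA sequence between the WT and FntbKO donors, which would change how reads are counted here, was not tested. The 3 not yet described did not pass the test. They had 0 to 0.492 CPM in FntbKO and 0.598 to 2.93 CPM in WT (chr17:35731077-35731294), 0 to 0.778 and 1.36 to 3.63 CPM (chr17:35736406-35736603), and 2.73 to 4.92 and 4.98 to 6.79 CPM (chr17:35737885-35738176). The low regions were interleaved with others that did not separate the genotypes. At chr17:35725583-35725926 the WT libraries had 2.23 to 4.65 CPM and the FntbKO libraries 2.33 to 4.01 CPM, and at chr17:35739691-35739997 they had 3.05 to 6.14 and 3.15 to 6.01 CPM. The region over the Ddr1 promoter had 9.56 to 14.8 CPM in WT and 6.02 to 11.2 CPM in FntbKO.

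Past this run, nearer to Ier3, the direction turned. The region at chr17:35763858-35764358 had 3.63, 4.82 and 2.96 CPM in WT cTreg, 6.14, 8.96 and 3.73 CPM in WT eTreg, 11.9 and 9.21 CPM in FntbKO cTreg and 14.2 and 11.1 CPM in FntbKO eTreg. All FntbKO libraries lay above all WT libraries. The log2 change in cTreg was 1.48 (SE 0.31, adjusted p = 0.0186 in edgeR), and in eTreg it was 0.96 (SE 0.29, adjusted p = 0.152 in edgeR). The cTreg call was lost without WT cTreg 3, without FntbKO cTreg 1, and without FntbKO cTreg 1 and WT cTreg 2 together (log2 change 1.30 to 1.49). The next region is the one that rose from cTreg to eTreg in WT, and there the FntbKO libraries had 4.92 to 7.21 CPM. The other region called in cTreg was that of Nfkbil1, lower in FntbKO by a log2 change of -1.13 (SE 0.25, adjusted p = 0.0271 in edgeR). That call was lost without WT cTreg 2, WT cTreg 3 or FntbKO cTreg 1, without the first and last of these together, in limma-voom, and in a fit of only the compared groups (adjusted p up to 0.731). In eTreg its log2 difference was -0.52 (SE 0.22, adjusted p = 0.332 in edgeR).

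**Figure D3:**
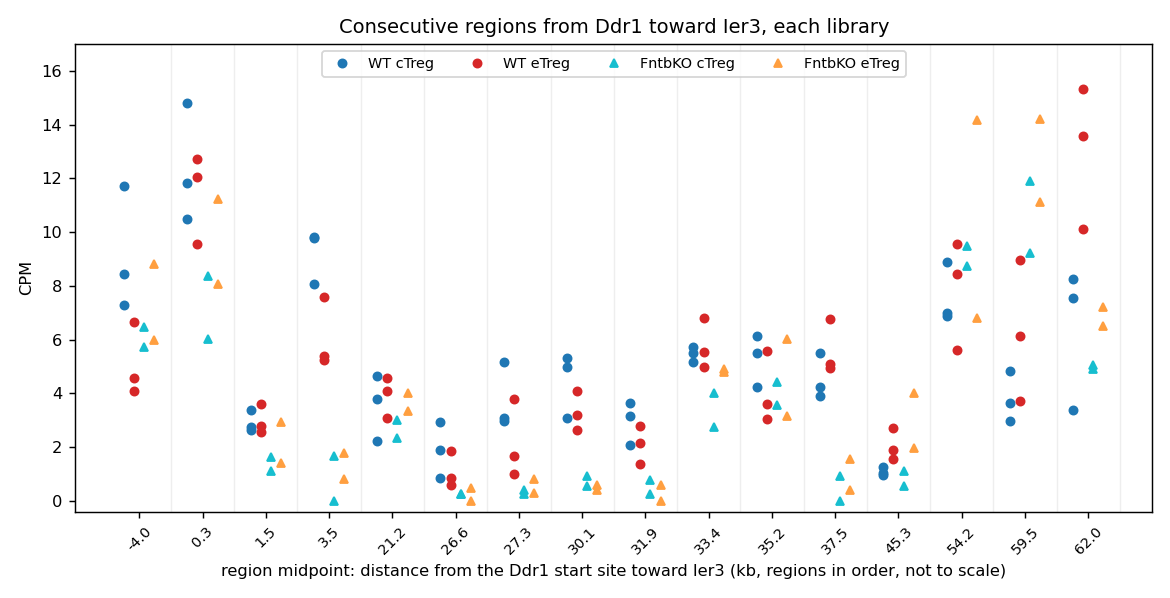
Accessibility (vertical axis, CPM) in each library for 16 consecutive regions from Ddr1 toward Ier3, in order along the chromosome and labelled with the distance of the midpoint from the Ddr1 start in kb (circles WT, triangles FntbKO). In 7 regions between 3.5 and 37.5 kb the triangles all lie below the circles, and at 59.5 kb they all lie above.

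Between FntbKO and WT eTreg cells, 1 of 326 MHC regions was called, against 0.35% of all regions. It is the region at 35734544 described above, lower in FntbKO as 0.169% of all regions were, and 0 MHC regions were higher, against 0.181% of all. At an unadjusted p under 0.05 there were 26 (7.98%, against 12.2% of all), and the MHC median log2 difference was 0.02. No MHC region was called in the interaction of genotype and subset, as 0% of all regions were. At an unadjusted p under 0.05 the interaction had 8 MHC regions and 3099 regions in all, and DESeq2 and limma-voom also called 0.

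**Figure D4:**
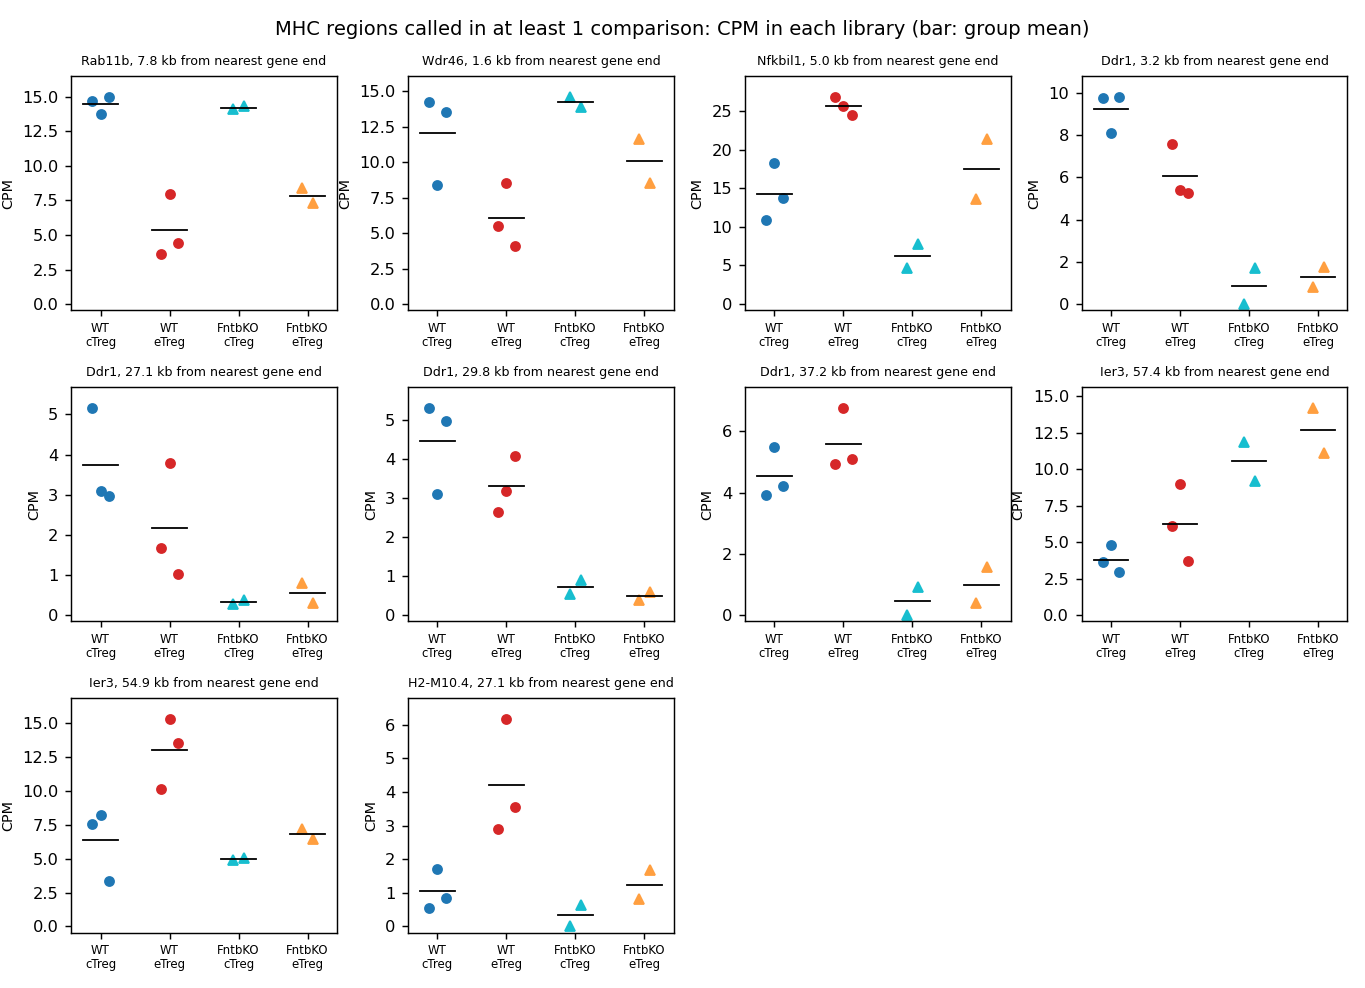
Accessibility (vertical axis, CPM) in each library of the 10 MHC regions called in at least 1 comparison, titled by their assigned gene and the distance to its nearer end (circles WT, triangles FntbKO, bars group means). Each panel has its own scale, and the 4 Ddr1 panels show FntbKO libraries at or below 1.77 CPM.

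None of the 10 called regions lay at a promoter window, where 27.3% of the MHC regions and 13.2% of all regions lay. The share of called regions at promoter windows was not counted over all regions, so this is not read as a result about promoters. Of the 10, 3 lay inside the span of a protein-coding gene and 7 outside, and their levels ran from 5.90 to 35.0 CPM per kb, on both sides of the MHC median of 16.6. Counted without a test, all FntbKO libraries lay above all WT libraries in 9 MHC regions (2.76%, against 2% of all regions) and below in 11 (3.37%, against 2.09%). Of the 9, 4 were at promoter windows, those of Rxrb with Slc39a7, Agpat1, Prrc2a and Nrm, and of the 11, none. This split by promoter was likewise not counted over all regions. All eTreg libraries lay above all cTreg libraries in 5 regions (1.53%, against 3.1% of all regions) and below in 2 (0.613%, against 3.02%), the latter inside Rab11b and at the promoter of Kank3.

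By gene family, the presentation genes of the MHC held 1 call. Over all regions 3.44% were called between WT subsets, 1.36% between FntbKO subsets, 0.568% between genotypes in cTreg and 0.35% in eTreg. In lists of this size so few calls lie near these shares, and they are not read as a result about a family. The 41 regions of class I heavy chains had that call in the 5 comparisons, near H2-M10.4. Between genotypes 2 had an unadjusted p under 0.05 in cTreg, against 12.4% of all regions, and 2 in eTreg, against 12.2%. The median log2 differences between genotypes were 0.03 in cTreg and 0.06 in eTreg. The H2-K1 promoter had 51.2, 43.7 and 47.9 CPM in WT cTreg, 48.8, 46.6 and 45.1 CPM in WT eTreg, 59.5 and 58.9 CPM in FntbKO cTreg and 43.1 and 54.3 CPM in FntbKO eTreg (FntbKO against WT in cTreg 0.31, SE 0.12, adjusted p = 0.247 in edgeR). The H2-D1 promoter had 43.7 to 53.4 CPM in WT and 47.5 to 54.3 CPM in FntbKO, which overlap. Summed over the list, class I gave 478 to 516 CPM in WT libraries and 491 to 524 CPM in FntbKO libraries.

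The 36 regions of class II chains had 0 calls in any comparison, near the shares of all regions. At an unadjusted p under 0.05 there were 7 of 36 between genotypes in cTreg, against 12.4% of all regions, and 1 in eTreg, against 12.2%. The median log2 difference of FntbKO against WT was 0.20 in cTreg, with 25 of 36 regions above 0, and 0.10 in eTreg, with 19 of 36 above 0, against -0.01 and near 0 over all regions. Their summed accessibility was 307.7 ± 13.9 CPM in WT cTreg (SD, n = 3), 319.9 ± 5.27 in WT eTreg (n = 3), 353.2 ± 16.6 in FntbKO cTreg (n = 2) and 341.3 ± 14.9 in FntbKO eTreg (n = 2). The 6 WT libraries ran from 295.1 to 323.1 CPM and the 4 FntbKO libraries from 330.8 to 364.9 CPM, without overlap, and likewise with DESeq2 size factors. With total counts as the scaling they overlapped, at 301.1 to 330.3 and 326.4 to 367.2 CPM. How often the sums of other lists separate genotypes or subsets was not counted. Separations of list sums, here and below, are therefore given as values only. Single promoters did not separate the genotypes: H2-Aa had 13.7 to 17.8 CPM in WT and 16.7 to 18.8 CPM in FntbKO, and H2-Eb1 had 9.50 to 17.2 CPM in WT and 10.8 to 17.2 CPM in FntbKO.

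The 15 regions of the peptide processing genes Tap1, Tap2, Psmb8, Psmb9 and Tapbp had 0 calls, near the shares of all regions. Between genotypes 3 of 15 had an unadjusted p under 0.05 in cTreg (12.4% of all regions) and 1 in eTreg (12.2%). The median log2 difference of FntbKO against WT was 0.23 in cTreg (12 of 15 above 0) and 0.24 in eTreg (11 of 15 above 0). Their sum was 140.6 to 162.5 CPM in the WT libraries and 168.7 to 181.9 CPM in the FntbKO libraries, and it did not overlap under any of the 3 scalings. How often the sums of other lists do so was not counted. The region of this list with the largest difference lay inside Tap1, 293 bp from its nearer end (chr17:34196516-34196932). It had 8.10, 6.54 and 10.9 CPM in WT cTreg, 11.8, 12.2 and 7.80 CPM in WT eTreg, 17.6 and 14.3 CPM in FntbKO cTreg and 16.0 and 12.5 CPM in FntbKO eTreg, with all FntbKO libraries above all WT libraries. The log2 difference in cTreg was 0.88 (SE 0.24, adjusted p = 0.0908 in edgeR). The next region on that side, just outside Tap1, went the other way, with 6.96 to 8.98 CPM in WT and 5.21 to 6.69 CPM in FntbKO. The shared promoter of Tap1 and Psmb9 had 26.2 to 35.6 CPM in WT and 35.3 to 40.3 CPM in FntbKO, with a difference in cTreg of 0.37 (SE 0.13, adjusted p = 0.223 in edgeR).

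Class II and processing genes are also active in other cells, so marker lists of those cells were summed in the same libraries. The B cell markers gave 126.4 to 141.8 CPM in WT and 91.8 to 129.2 CPM in FntbKO over the 5 genes with a region, and Ms4a1 and Cd79b had none. The dendritic cell list gave 217 to 270 CPM in WT and 193 to 238 CPM in FntbKO (6 of 7 genes with a region), and the myeloid list 283 to 359 and 264 to 331 CPM (5 of 8 genes, with none for Lyz2, Csf1r and Adgre1). The CD8 T or NK cell list gave 276 to 320 CPM in WT and 259 to 329 CPM in FntbKO (7 of 7 genes). The WT and FntbKO ranges overlapped in each of these 4 lists when the subsets were pooled. Within cTreg the B cell sums did not overlap, at 126.4 to 140.1 CPM in WT and 91.8 to 108.5 CPM in FntbKO. Nor did they within eTreg, at 130.5 to 141.8 and 107.8 to 129.2 CPM. Within a subset only 3 WT libraries stand against 2 FntbKO libraries, and how often other lists separate so was not counted. The median log2 difference of the B cell regions between genotypes was -0.50 in cTreg (18 of 22 below 0) and -0.32 in eTreg (15 of 22). The markers did not all go that way. The Cd79a region was higher in FntbKO, by 0.22 in cTreg (SE 0.29) and 0.57 in eTreg (SE 0.32), and was not called. Within eTreg the dendritic and CD8 T or NK sums were also lower in FntbKO without overlap. Between genotypes the dendritic list held 1 call, a Zbtb46 region lower in FntbKO cTreg (0.378% of all regions were), and the other 3 lists held 0. The Treg list itself was 1294 to 1467 CPM in WT and 1472 to 1525 CPM in FntbKO, and the ranges overlapped when scaled by total counts. The part of other cells in the class II and processing values was not tested further.

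**Figure D5:**
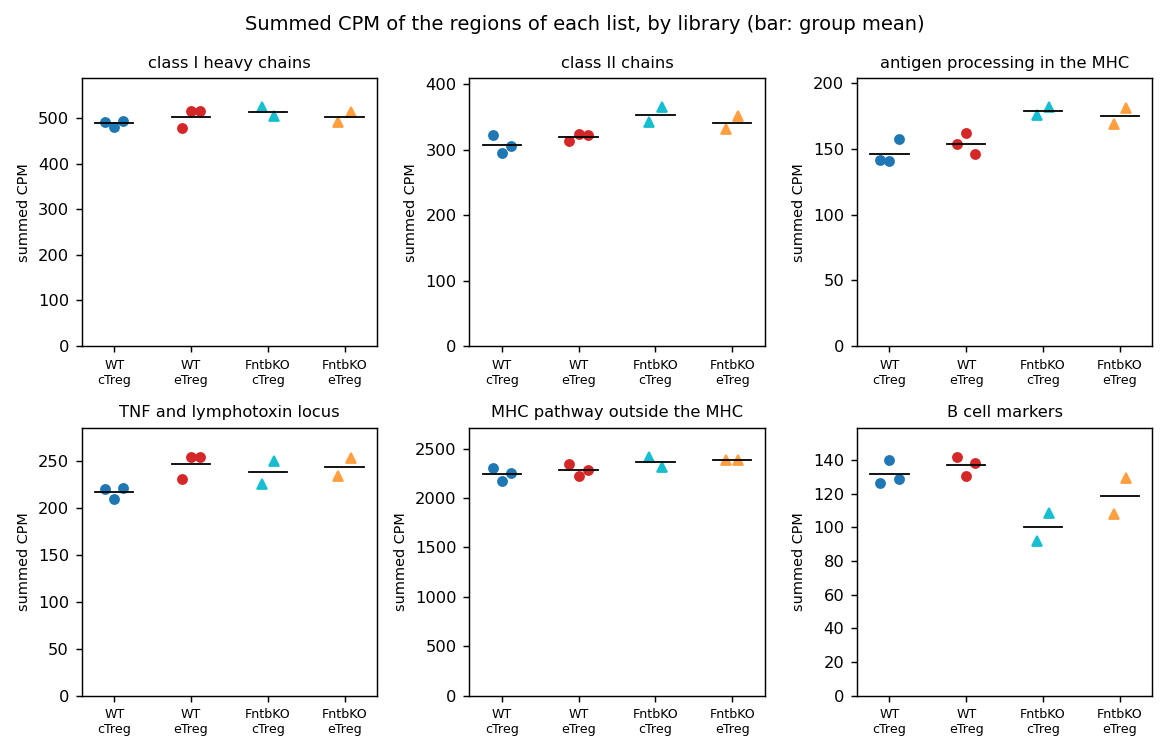
Summed accessibility (vertical axis, CPM from 0) of the regions of 4 MHC gene lists, of MHC pathway genes outside the MHC and of B cell markers in each library (circles WT, triangles FntbKO, bars group means). The FntbKO libraries lie above the WT libraries for class II chains (330.8 to 364.9 against 295.1 to 323.1 CPM, overlapping when scaled by total counts) and antigen processing. For B cell markers the genotypes overlap when the subsets are pooled, and FntbKO lies below WT within cTreg and within eTreg.

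In the remaining families 1 region, that of Nfkbil1, was called. The 20 regions of the TNF cluster (Tnf, Lta, Ltb, Lst1, Aif1 and Nfkbil1) summed to 209.6 to 220.9 CPM in WT cTreg and 230.9 to 254.2 CPM in WT eTreg, without overlap. In FntbKO the cTreg libraries (225.1 and 249.996 CPM) and the eTreg libraries (233.8 and 252.4 CPM) overlapped. Between WT subsets 6 of the 20 had an unadjusted p under 0.05, against 18% of all regions. The region inside Tnf had 31.6 to 43.6 CPM in WT and 34.3 to 43.8 CPM in FntbKO, and the Ltb promoter had 10.32 to 17.3 and 9.44 to 17.8 CPM. The 26 regions of 13 chromatin and transcription genes, such as Brd2 and Daxx, had 0 calls, with a median log2 difference of 0.16 between eTreg and cTreg in WT and 0.16 in FntbKO. Their sum was 276.1 to 279.8 CPM in WT cTreg and 317.9 to 337.1 CPM in WT eTreg, and 295.6 and 320.7 CPM in FntbKO cTreg and 322.2 and 360.1 CPM in FntbKO eTreg, so the eTreg libraries lay above the cTreg libraries within each genotype. Between WT subsets 6 of the 26 had an unadjusted p under 0.05, against 18% of all regions. The 9 regions of TRIM genes and the 4 of heat shock genes had 0 calls, and of 4 complement genes only C2 had a region (2.23 to 6.08 CPM). No list of MHC genes other than class I and the TNF cluster held a call in the 5 comparisons. In lists of this size 0 calls are near the shares of all regions.

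Outside the MHC, 23 of 24 genes that regulate or serve the same pathway had regions, 125 in all. Between WT subsets 5 were called, against 3.44% of all regions. In eTreg 2 rose (1.83% of all), both near Irf1, an interferon response factor, and 3 fell (1.61% of all), of which 1 was near Irf2 and 2 belonged to Nlrc5, the class I transactivator. The 2 outside Nlrc5 fell by 1.28 and 0.92 on the log2 scale in eTreg (adjusted p = 0.00818 and 0.0190 in edgeR). In FntbKO 1 region rose in eTreg, as 0.966% of all did, and it lay inside Nlrc5 (0.66, SE 0.16, adjusted p = 0.0332 in edgeR). None was called between genotypes, where the median log2 differences were 0.13 in cTreg and 0.11 in eTreg, and 15 and 19 of the 125 had an unadjusted p under 0.05, against 12.4% and 12.2% of all regions.

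By position, the busiest stretch of 500 kb was that from 34.0 to 34.5 Mb, with the class II and transporter genes and 66 of the 326 regions. Its summed accessibility was 579.8 ± 12.5 CPM in WT cTreg (SD, n = 3), 601.0 ± 14.5 in WT eTreg (n = 3), 674.7 ± 30.3 in FntbKO cTreg (n = 2) and 657.9 ± 38.7 in FntbKO eTreg (n = 2), and none of its regions was called. The stretch from 35.5 to 36.0 Mb, with Ddr1 and Ier3, had 5 of the 6 calls between genotypes in cTreg and a median log2 difference of -0.21 over its 52 regions. Over the whole MHC the sum was 3641 ± 66.1 CPM in WT cTreg (SD, n = 3), 3857 ± 113 in WT eTreg (n = 3), 3868 ± 134 in FntbKO cTreg (n = 2) and 3948 ± 198 in FntbKO eTreg (n = 2), and libraries of the 2 genotypes overlapped (3569 to 3939 CPM in WT and 3773 to 4087 CPM in FntbKO).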

How the data were processed

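ATAC-seq counts were deposited as raw read counts per region for 10 libraries, without normalization. Per the submitters' processing notes, the authors worked on mm10 (GRCm38) with MACS2 2.1.1, bedtools, SAMtools, Trimmomatic 0.36 and Picard 2.9.4. The aligner and the merging of regions are not given in the sources used here. Even counts made up 66.7% to 79.2% of a library, so mates may have been counted separately. Coordinates are as deposited, with no statement of a 0 or 1 base.

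Groups came from the sample titles. TMM scaling was followed by edgeR 4.0.16 (quasi-likelihood test, robust, R 4.3.3) on the whole table after filterByExpr, with 1 mean per group, all 10 libraries and 6 residual degrees of freedom. All 326 MHC regions were tested. The script was tested on simulated data. CPM values are TMM-scaled. Gene spans and promoter windows came from RefSeq (GRCm38.p6, 194 genes of the interval with a window). Named regions are those called, those of smallest p, the 10 most accessible per kb and the most accessible of each listed gene. Members and lists were chosen with earlier results of these data known. Alternatives were other scalings, filters, DESeq2 1.42.0, limma-voom (3.58.1), halved counts, left-out libraries, only the compared groups and a replicate block. The result for 1 marker gene is not reported here.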

Additional observations from a re-analysis of the deposited data

Results flagged for a closer look

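In a region inside Myo1f (chr17:33557646-33557825) both FntbKO cTreg libraries (0.274 and 0.713 CPM) lay below the WT cTreg mean and both FntbKO eTreg libraries (2.81 and 2.46 CPM) above the WT eTreg mean, so the genotype change went opposite ways in the subsets, by a difference of 2.299 on the log2 scale. The fitted interaction was 2.07 (SE 0.85, adjusted p = 0.9999 in edgeR). At the promoter of Psmb8 (chr17:34198172-34198490), an immunoproteasome subunit, accessibility was higher in eTreg than in cTreg in the WT libraries and lower in the FntbKO libraries, a difference of -0.789 on the log2 scale (fitted interaction -0.75, SE 0.36, adjusted p = 0.9999 in edgeR). The same opposite directions were seen at the promoter that Nfkbil1 shares with Atp6v1g2 (chr17:35235682-35236721), with a difference of -0.435 (fitted interaction -0.44, SE 0.21, adjusted p = 0.9999 in edgeR). None of the 3 differences passed the test.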

How the results depend on the processing

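Settings were changed singly. The 5 calls of eTreg over cTreg in WT became 9 with a replicate block, 9 without WT cTreg 2 and FntbKO cTreg 1 together, and 1 to 7 when 1 library was left out. The 1 call in FntbKO became 2 with halved counts, 4 with the block, 2 in a fit of only the compared groups, 0 without the pair of libraries, and 0 to 6 with 1 library left out. The 6 calls of FntbKO over WT in cTreg became 3 in limma-voom, 1 without the pair and 1 to 7 with 1 left out. The 1 call in eTreg became 3 in DESeq2, 0 in limma-voom, 3 with halved counts, 2 with the block, 3 without the pair, 3 in the fit of only the compared groups and 0 to 3 with 1 left out. The interaction had 0 calls under every setting run. With those of the interaction, 65 counts stayed within 1.5 times and 34 did not. The 65 include the settings of the interaction, where 0 calls stayed 0. The calls over all regions were counted in the same settings. In WT 2619 became 4141 with the block, 4225 without the pair and 427 to 3664 with 1 library left out. In FntbKO 1033 became 1728 with halved counts, 2480 with the block, 1412 with only the compared groups, 38 without the pair and 5 to 2249 with 1 left out. Between genotypes in cTreg 433 became 425 in limma-voom, 43 without the pair and 41 to 723 with 1 left out, and in eTreg 267 became 329 in DESeq2, 255 in limma-voom, 449 with halved counts, 655 with the block, 698 without the pair, 802 with only the compared groups and 9 to 507 with 1 left out. No direction of a named region that was called reversed. Of the named regions' results, 45 lost a call, 21 gained one and 561 did neither. The 561 include mean CPM levels, which have no threshold and moved by less than the SD of the libraries under other scalings and halved counts. The cause of these changes was not tested, beyond the fewer libraries of a fit that leaves some out, where a lone library is assumed to vary like the other groups.

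The titles do not say whether libraries of the same number are pairs. The correlation of deviations between cTreg and eTreg libraries of the same genotype and number was 0.1648, 0.0833 and 0.0317 in WT. In FntbKO it was 0.1798. With 2 libraries in a group their deviations mirror each other, so both numbers must give this same value. Across genotypes at the same number the correlation ran from -0.0781 to 0.1406. Among WT libraries, 5 of 6 correlated best with their own number. A pairing was neither assumed in the main test nor excluded. Pairs of replicates differed by a chi-square per region of 2.43 to 3.53, a value that mates counted separately also raise, and each library was counted as a sample of its own. Depth limits the low regions: several called regions rest on 8 to 26 counts in FntbKO.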
